A study of Mus musculus with 4 samples.

Results

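The 38 genes described here encode the glucose and lactate transporters, the enzymes of glycolysis, the pyruvate dehydrogenase kinases, and the sensors and responders of the cellular answer to low oxygen. They were chosen as a list of gene symbols, and all 38 were found among the 45232 Ensembl identifiers of the count files. Read counts came from leukemic granulocyte-macrophage progenitors (L-GMPs), the cells of a leukemia that resemble normal myeloid progenitors. They were sorted from 2 mice in the miR-99 KD group and 2 mice in the Scr group, with 1 library per mouse, to ask how lower miR-99 alters gene expression in these cells. All 4 mice were secondary recipients carrying an MLL-AF9 leukemia. This fusion protein, made by a chromosome translocation, drives acute myeloid leukemia. Cells positive for CD34, CD16/32, Sca-1 and c-Kit, and for GFP and tdTom, were collected when the mice died, lysed in Trizol LS and turned into libraries by SMARTer amplification, which copies small amounts of RNA. The labels do not expand the names Scr and KD. The sources used here do not give what produced the knockdown or the control, the strain and age of the mice, or whether the recipients shared a primary leukemia.

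Glycolysis splits glucose into pyruvate, which lactate dehydrogenase turns into lactate or mitochondria oxidise. When oxygen is low, the prolyl hydroxylases of the Egln family no longer mark hypoxia-inducible factor (HIF) alpha subunits for destruction, and HIF then raises transcription of many glycolytic enzymes, glucose transporters and pyruvate dehydrogenase kinases. HIF1A is controlled largely at the protein level, so its RNA is not a measure of HIF activity. MicroRNAs of the miR-99 family pair through their seed with messenger RNAs and lower their output.

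The microRNA sequences are shown because the seed, bases 2 to 8 in capitals, is what a target site must match. All 3 family members share it. Sequences and positions are those of RefSeq on GRCm38.p6. The mature sequences printed below lie at chr16:77598940-77598961, chr17:17830194-17830215 and chr9:41531437-41531458, all on the plus strand.
miR-99a-5p: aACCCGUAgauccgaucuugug
miR-99b-5p: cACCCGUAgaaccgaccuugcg
miR-100-5p: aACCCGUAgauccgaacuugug
The libraries do not check the knockdown, since the entries for Mir99a, Mir99b and Mir100 held 0 counts in every library and mature microRNAs were not measured.

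Longer matches were those to all 7 seed bases, or to seed positions 2 to 7 followed by an A. They were found in the annotated 3' UTR of 0 of the 38 genes. The share was 2.64% of the 12387 tested genes that have a 3' UTR in the annotation. A match to 6 bases, seed positions 2 to 7, with no longer match in the 3' UTR, was found in 2 of the 38 (5.26%). The share was 5.13% of those tested genes. The 2 genes were Hk2, which encodes hexokinase 2, and P4ha1, which encodes the catalytic alpha subunit of the collagen prolyl 4-hydroxylase. Both stretches are shown with the 6 matching bases in capitals, at position 574 of the 2285 bases of the Hk2 3' UTR and position 544 of the 2230 bases of the P4ha1 3' UTR.
Hk2: tcacacggctgaACGGGTcatctatgagc
P4ha1: cccctcctcaccACGGGTgaattcagcca
A match of letters is a description and shows no binding.

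Promoters were searched on both strands for ACGTG and GCGTG, the forms of the core of the hypoxia response element that HIF binds, and for CACGTG, the E-box bound by Myc and its relatives, which contains ACGTG on both strands. RefSeq gave 50 promoters for 34 of the 38 genes, each a window of 300 bases around the start of transcription. Slc2a3, Ndrg1, Bnip3l and Epas1 had no entry. ACGTG was present in 28 of the 50 promoters (56%), against 25.0% of the 13305 promoters of tested genes and 19.6% of all 32851 promoters. GCGTG was present in 54% of the 50, against 49.0% of promoters of tested genes, and CACGTG in 12%, against 9.78%. The median GC content of these promoters was 62.2%, against 60.3% for tested genes. Some of these genes are textbook HIF targets, so the share with ACGTG describes the list and was not tested.

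The promoters of 3 genes are printed with these cores in capitals, on either strand, because P4ha1 and Ldhb had the smallest p-values among the 38 and Ldha had the highest level in CPM per kb of the union of its exons. The P4ha1 window is chr10:59323046-59323345 on the plus strand and the Ldhb window chr6:142507908-142508207 on the minus strand. The Ldha window is chr7:46845554-46845853 on the plus strand, the first of the Ldha starts.
P4ha1: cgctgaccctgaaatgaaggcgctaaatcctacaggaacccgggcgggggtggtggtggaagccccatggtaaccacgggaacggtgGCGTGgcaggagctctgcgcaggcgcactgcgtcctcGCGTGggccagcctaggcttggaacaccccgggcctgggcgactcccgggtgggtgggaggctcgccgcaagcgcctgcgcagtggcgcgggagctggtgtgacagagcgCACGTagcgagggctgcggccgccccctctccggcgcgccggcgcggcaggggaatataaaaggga
Ldhb: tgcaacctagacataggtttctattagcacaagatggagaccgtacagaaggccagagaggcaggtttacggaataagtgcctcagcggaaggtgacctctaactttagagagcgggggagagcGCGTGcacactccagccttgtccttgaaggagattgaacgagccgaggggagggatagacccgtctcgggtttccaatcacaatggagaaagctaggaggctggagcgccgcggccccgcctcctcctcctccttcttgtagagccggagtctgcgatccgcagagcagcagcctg
Ldha: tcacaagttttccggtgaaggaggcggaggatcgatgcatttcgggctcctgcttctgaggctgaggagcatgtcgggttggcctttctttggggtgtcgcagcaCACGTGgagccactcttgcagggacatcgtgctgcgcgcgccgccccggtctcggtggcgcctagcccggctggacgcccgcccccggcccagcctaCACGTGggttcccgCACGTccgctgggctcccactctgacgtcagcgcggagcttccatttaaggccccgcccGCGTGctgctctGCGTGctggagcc
The Ldha window held 7 cores, of which 4 lie in its 2 CACGTG sites. P4ha1 had 3 cores and Ldhb had 1.

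Each library held between 38458519 and 42674407 gene counts. Scr 1 and miR-99 KD 2 stood apart from the other libraries. Scr 1 had counts in 28573 genes, against 21372 to 24038 in the other 3, and olfactory receptor genes, which blood cells are not known to use, summed to 51.9 CPM (gene counts scaled to a common library size), against 4.78 to 15.0 CPM in the others. Reads outside annotated genes were 19.8% of its entries, against at most 14.9% in the others, and alignments that were not unique were 23.6% of the entries of miR-99 KD 2, against 19.3% to 20.1%. Mitochondrial genes held 0.853% and 1.16% of gene counts in miR-99 KD, against 0.650% and 0.637% in Scr. The 14 markers of granulocyte maturation summed to 11626 and 24840 CPM in miR-99 KD and to 6127 and 4570 CPM in Scr. Their log2 fold changes were positive in 12 of 14, beside 49.0% of all genes tested. DESeq2 called 7 of them at an adjusted p under 0.05, beside 1.22% of all genes. The main edgeR test called 0, beside 0% of all genes. At an unadjusted edgeR p under 0.05, 9 of the 14 were higher in miR-99 KD, beside 2.66% of all genes. At that level 0 were lower, beside 5.23%. The 11 monocyte markers summed to 1458 and 1910 CPM in miR-99 KD and 1205 and 1067 CPM in Scr. Their log2 fold changes were positive in 7 and negative in 4, with 2 higher and 0 lower at an unadjusted edgeR p under 0.05. Of the gate's genes, Kit had 307 and 234 CPM in miR-99 KD and 424 and 437 CPM in Scr, Cd34 and Fcgr3 were at 292 to 486 CPM in all 4, and Ly6a, which encodes Sca-1, had 5 and 4 counts in miR-99 KD and 4 and 8 counts in Scr, so RNA for the labelled Sca-1 was barely detected. The 12 erythroid markers, mostly globin genes, summed to 54.2 and 133 CPM in miR-99 KD and 84.7 and 119 CPM in Scr. Of the 11 tested, 7 had negative log2 fold changes, with 3 lower and 0 higher at an unadjusted edgeR p under 0.05. Among them Slc4a1 had 40 and 85 counts in miR-99 KD and 226 and 730 counts in Scr (DESeq2 adjusted p = 0.00326, edgeR adjusted p = 0.552). The stroma and endothelium markers, mostly Pecam1, summed to 158 and 142 CPM in miR-99 KD and 128 and 121 CPM in Scr, with 6 of 7 tested negative, among them Vwf and Sparc at an unadjusted edgeR p under 0.05. The T and NK markers, mostly Nkg7, summed to 156 and 161 CPM in miR-99 KD and 156 and 118 CPM in Scr. Of the 3 tested, 2 were negative, among them Klrb1c at an unadjusted edgeR p under 0.05. The B cell markers, mostly Cd79b, summed to 66.0 and 89.9 CPM in miR-99 KD and 72.6 and 63.3 CPM in Scr. Of the 3 tested, 2 were negative, and 0 had an unadjusted edgeR p under 0.05. The part of other or more mature cells in the values below was not tested. In such bulk libraries, fewer cells of a type and less RNA per cell cannot be told apart.

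RNA for every step between glucose and lactate was detected in L-GMPs, at levels that differed widely between steps. On the scale of CPM per kb of exon, averaged over the 4 libraries, Ldha, the A subunit of lactate dehydrogenase that favours lactate formation, was highest of the 38 genes at 375 with the union of all exons as length, followed by the pyruvate kinase gene Pkm at 342 and the aldolase gene Aldoa at 301. The next were Hk3 at 214, Tpi1 at 193, Gpi1 at 160 and Eno1 at 103 CPM per kb. Ldha stood above 99.5% of all tested genes on this scale, and the glucose transporter genes Slc2a1 and Slc2a3, at 13.7 and 4.06 CPM per kb, above 70.9% and 47.5%. With the longest transcript as length, Pkm came before Ldha, at 703 and 684 CPM per kb, and Aldoa followed at 567. On that scale Hk3, at 245 CPM per kb, came after Tpi1 at 330, Gpi1 at 323 and Eno1 at 274. The order of the genes therefore depends on the length used. Ldha and Pkm did not differ beyond their spread, since Ldha lay at 325 and 437 CPM per kb in miR-99 KD and at 373 and 365 CPM per kb in Scr, while Pkm lay at 323 and 321 CPM per kb in miR-99 KD and at 350 and 374 CPM per kb in Scr. From Pgam1 at 50.3 CPM per kb to Egln1 at 2.32 CPM per kb the other 28 tested genes followed. Eno2, Epas1 and Adm were the lowest.

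**Figure D1:**
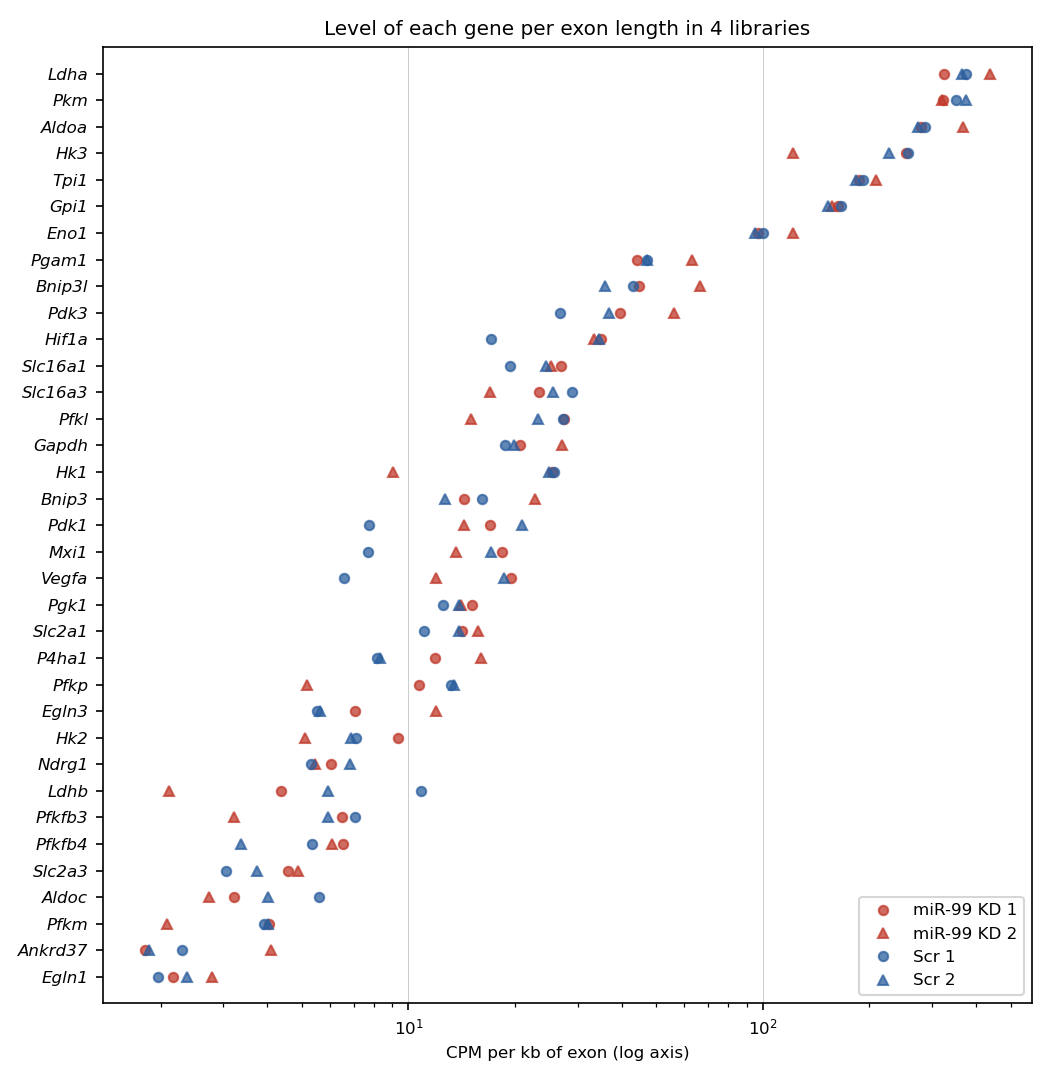
Level of the 35 tested genes in CPM per kb of exon (log axis), 1 point per library, with miR-99 KD in red and Scr in blue. Ldha, Pkm and Aldoa lead, and Eno2, Epas1 and Adm, with at most 14 counts in any library, are not drawn.

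In 3 genes the counts were too low for the main edgeR test. Eno2, the neuronal enolase, had 2 and 1 counts in miR-99 KD and 6 and 7 counts in Scr. Epas1, which encodes HIF-2 alpha, had 5 and 4 counts in miR-99 KD and 14 and 9 counts in Scr. Adm, which encodes the vasodilator peptide adrenomedullin, had 0 and 2 counts in miR-99 KD and 11 and 3 counts in Scr. Hif1a therefore made up 99.6% to 99.9% of the length-scaled counts of the HIF alpha pair in every library.

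None of the 35 tested genes passed the test between the groups. With edgeR's quasi-likelihood test and Benjamini-Hochberg adjustment over 15591 genes, 0 of the 35 had an adjusted p under 0.05, beside 0% of all genes, and their adjusted p-values ran between 0.583 and 0.989. At an unadjusted p under 0.05, 1 of the 35 was higher in miR-99 KD (P4ha1), beside 2.66% of all genes, and 1 was lower (Ldhb), beside 5.23% of all genes. DESeq2 called 0 of 36 of them, beside 1.22% of all genes, and limma-voom called 0 of 35 and no gene at all. Both miR-99 KD libraries lay above both Scr libraries in 10 of the 35, or 28.6%, beside 18.9% of all genes, and below them in 5, or 14.3%, beside 25.3% of all genes. The log2 fold change, miR-99 KD over Scr, was positive in 24 (68.6%) and negative in 11, beside 49.0% positive over all genes. Its median was 0.16, beside −0.01 over all genes.

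**Figure D2:**
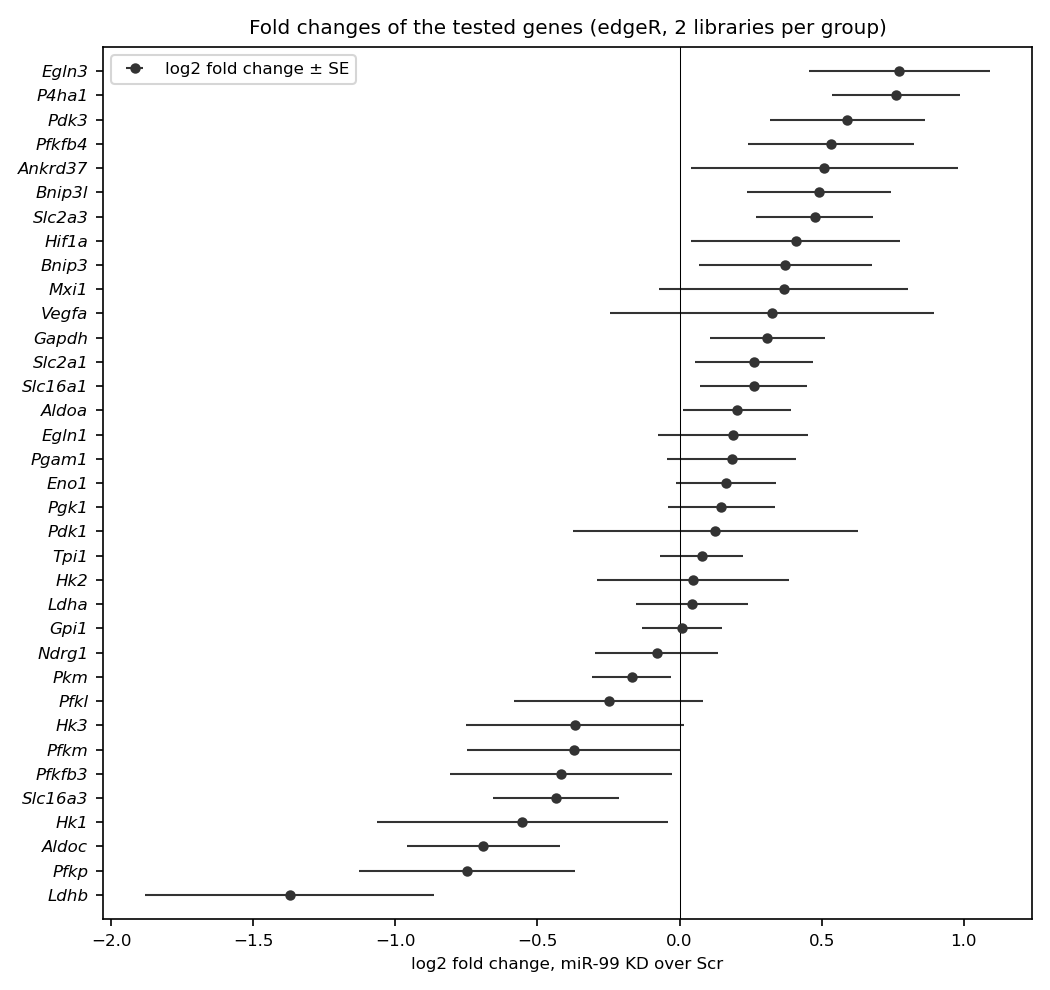
Log2 fold change of miR-99 KD over Scr with its standard error (edgeR, 2 libraries per group) for the 35 tested genes. Values run between 0.77 for Egln3 at the top and −1.37 for Ldhb at the bottom, and none passed the adjusted threshold.

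Both glucose transporters had higher values in miR-99 KD. Slc2a1, which encodes the widespread transporter GLUT1, had 49.7 and 55.2 CPM in miR-99 KD, against 38.8 and 48.7 CPM in Scr, a log2 fold change of 0.26 ± 0.21 (SE). Slc2a3, which encodes the high-affinity transporter GLUT3, had 33.1 and 35.3 CPM in miR-99 KD, against 22.2 and 27.0 CPM in Scr, a log2 fold change of 0.48 ± 0.21 (edgeR adjusted p = 0.659). The groups did not overlap in either gene, though Slc2a1 in miR-99 KD 1 was close to Scr 2. Per kb, Slc2a3 made up 24.4% and 23.6% of the pair in miR-99 KD, against 21.7% and 21.2% in Scr.

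The hexokinases, which trap glucose in the cell, were low in 1 library. Hk3, the form found in myeloid cells, had 932 and 447 CPM in miR-99 KD, against 946 and 834 CPM in Scr. Hk1, the housekeeping form, had 217 and 77.4 CPM in miR-99 KD, against 219 and 213 CPM in Scr. Hk2, a form that HIF and insulin raise, had 55.7 and 30.5 CPM in miR-99 KD, against 42.4 and 41.0 CPM in Scr. In all 3 genes miR-99 KD 2 was the lowest library, while miR-99 KD 1 was near or above the Scr values. The log2 fold changes were −0.37 ± 0.38 for Hk3, −0.55 ± 0.51 for Hk1 and 0.05 ± 0.34 for Hk2. Without miR-99 KD 2 the first became 0.10 and that of Hk1 0.04, and without miR-99 KD 1 that of Hk2 became −0.39. Hk3 held 87.9% and 89.6% of the length-scaled hexokinase counts in miR-99 KD, against 88.7% and 87.7% in Scr. The Hk2 share was 3.24% and 3.76% in miR-99 KD, against 2.45% and 2.66% in Scr, and the Hk1 share 8.83% and 6.69% in miR-99 KD, against 8.87% and 9.64% in Scr, with no overlap of the groups in either. Together the 3 genes summed to 1204 and 555 CPM in miR-99 KD, against 1207 and 1088 CPM in Scr.

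At the next steps, glucose phosphate isomerase, encoded by Gpi1, differed little among libraries, with 1054 and 1013 CPM in miR-99 KD, against 1071 and 985 CPM in Scr. Phosphofructokinase, the committed step of the pathway, was again low in miR-99 KD 2. Pfkl, the liver form and the highest of the 3 per kb, had 183 and 100.2 CPM in miR-99 KD, against 182 and 155 CPM in Scr. Pfkp, the platelet form, had 143 and 69.3 CPM in miR-99 KD, against 177 and 180 CPM in Scr, a log2 fold change of −0.75 ± 0.38 (edgeR adjusted p = 0.681). Its groups did not overlap, and without miR-99 KD 2 the log2 fold change was −0.28. Pfkm, the muscle form, lay at 13.5 and 6.97 CPM in miR-99 KD, against 13.1 and 13.4 CPM in Scr. Per kb, Pfkp held 25.4% and 23.2% of the family in miR-99 KD, against 29.8% and 33.1% in Scr, and Pfkl 65.1% and 67.4% in miR-99 KD, against 61.4% and 57.0% in Scr. An exact permutation test of 2 against 2 libraries cannot go below p = 0.333, so these shares are given as values. Pfkp shares 748 exon bases with Pitrm1 on the other strand, and reads of the overlap cannot be assigned without a stated strand setting.

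The bifunctional enzymes make and break fructose 2,6-bisphosphate, the activator of phosphofructokinase. Pfkfb3, whose product acts mainly as a kinase, had 49.3 and 24.3 CPM in miR-99 KD, against 53.4 and 44.8 CPM in Scr, with a log2 fold change of −0.42 ± 0.39 that became 0.04 without miR-99 KD 2. Pfkfb4, a form described as a HIF target, had 31.9 and 29.6 CPM in miR-99 KD, against 26.1 and 16.4 CPM in Scr. The Pfkfb4 groups did not overlap, with a log2 fold change of 0.53 ± 0.29 (edgeR adjusted p = 0.693) and Scr 2 the lowest library. Its log2 fold change was 0.98 without Scr 1 and 0.28 without Scr 2. Per kb, Pfkfb4 made up 50.1% and 65.4% of the pair in miR-99 KD, against 43.1% and 36.2% in Scr.

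In the lower part of the pathway, 5 enzyme genes were highest in miR-99 KD 2, the library in which the hexokinases and phosphofructokinases were lowest. Aldoa, the main aldolase, had 812 and 1066 CPM in miR-99 KD, against 836 and 796 CPM in Scr. Gapdh, the enzyme that reduces NAD+ to NADH, had 85.1 and 112 CPM in miR-99 KD, against 77.3 and 81.9 CPM in Scr. Pgam1, the phosphoglycerate mutase, had 87.4 and 125 CPM in miR-99 KD, against 93.4 and 93.5 CPM in Scr. In Aldoa and Pgam1, miR-99 KD 1 lay among or below the Scr libraries, so those groups overlapped, and Gapdh was the exception. Eno1, the main enolase, had 521 and 655 CPM in miR-99 KD, against 538 and 511 CPM in Scr. Tpi1, the triose phosphate isomerase, had 516 and 573 CPM in miR-99 KD, against 527 and 505 CPM in Scr. The log2 fold changes of these 5 genes lay between 0.08 and 0.31, with standard errors of 0.15 to 0.23, and that of Pgam1 became −0.06 without miR-99 KD 2.

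Pgk1, the first enzyme of the pathway to yield ATP, had 33.8 and 31.6 CPM in miR-99 KD, against 28.0 and 31.1 CPM in Scr, and miR-99 KD 2 was barely above Scr 2. Pkm, the pyruvate kinase, was below both Scr libraries in miR-99 KD, with 1614 and 1607 CPM, against 1750 and 1871 CPM in Scr, a log2 fold change of −0.17 ± 0.14 (edgeR adjusted p = 0.755). The counts do not separate the M1 and M2 splice forms of Pkm. Aldoc, the brain form of aldolase, had 10.5 and 8.91 CPM in miR-99 KD, against 18.2 and 13.1 CPM in Scr. The Aldoc groups did not overlap, at −0.69 ± 0.27 (edgeR adjusted p = 0.638), and the gene held at most 1.91% of the length-scaled aldolase counts in any library.

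**Figure D3:**
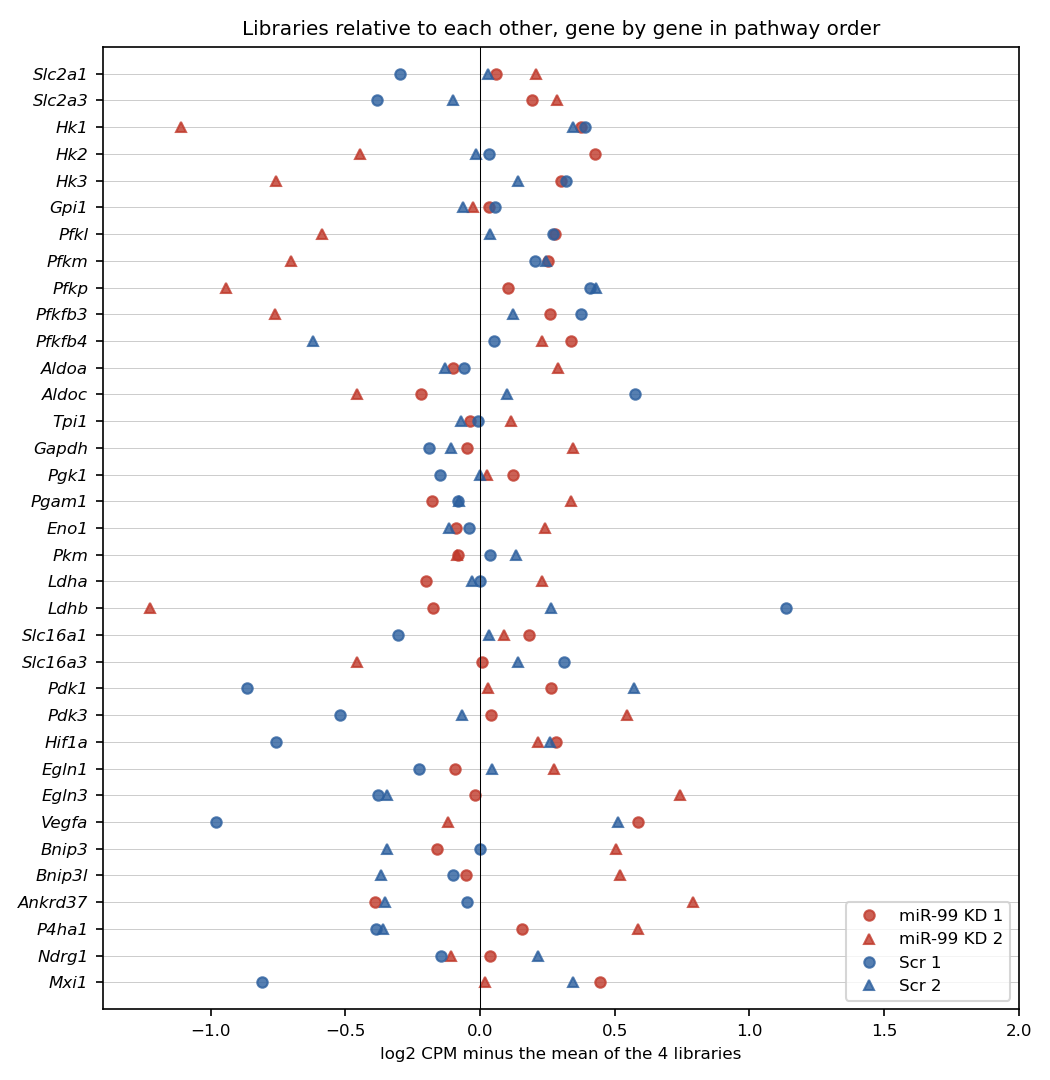
Log2 CPM of each library minus the mean of the 4 libraries, for the 35 tested genes in pathway order, with miR-99 KD in red and Scr in blue. The triangles of miR-99 KD 2 lie far left for the hexokinases and phosphofructokinases and right for Aldoa, Gapdh, Pgam1 and Eno1, and the circles of Scr 1 lie far left for Pdk1, Hif1a, Vegfa and Mxi1.

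At the lactate step the pair of subunit genes differed. Ldha had 1075 and 1446 CPM in miR-99 KD, against 1236 and 1209 CPM in Scr, a log2 fold change of 0.04 ± 0.20 that was −0.15 without miR-99 KD 2. Ldhb (ENSMUSG00000030246, chr6:142490249-142507957 on GRCm38), the B subunit that favours the use of lactate, had 6.87 and 3.32 CPM in miR-99 KD, against 17.0 and 9.31 CPM in Scr. Both miR-99 KD libraries lay below both Scr libraries. The log2 fold change of −1.37 ± 0.51 was the most negative of the 35 tested genes (edgeR adjusted p = 0.630), and DESeq2 gave an adjusted p of 0.452. The Scr libraries differed, with 701 Ldhb counts in Scr 1 and 378 in Scr 2, and without Scr 1 the log2 fold change was −0.81. Ldhb made up 1.33% and 0.481% of the length-scaled lactate dehydrogenase counts in miR-99 KD, against 2.83% and 1.60% in Scr.

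The monocarboxylate transporters carry lactate across the membrane. Slc16a1, which encodes MCT1, had 119 and 112 CPM in miR-99 KD, against 85.4 and 108 CPM in Scr. Slc16a3, which encodes MCT4, the exporter of glycolytic cells and a HIF target, had 124 and 90.1 CPM in miR-99 KD, against 153 and 136 CPM in Scr. Neither pair of groups overlapped, and the log2 fold changes had opposite signs, 0.26 ± 0.19 for Slc16a1 and −0.43 ± 0.22 for Slc16a3. Slc16a1 thus held 53.6% and 59.9% of the length-scaled counts of the pair in miR-99 KD, against 40.1% and 48.7% in Scr.

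**Figure D4:**
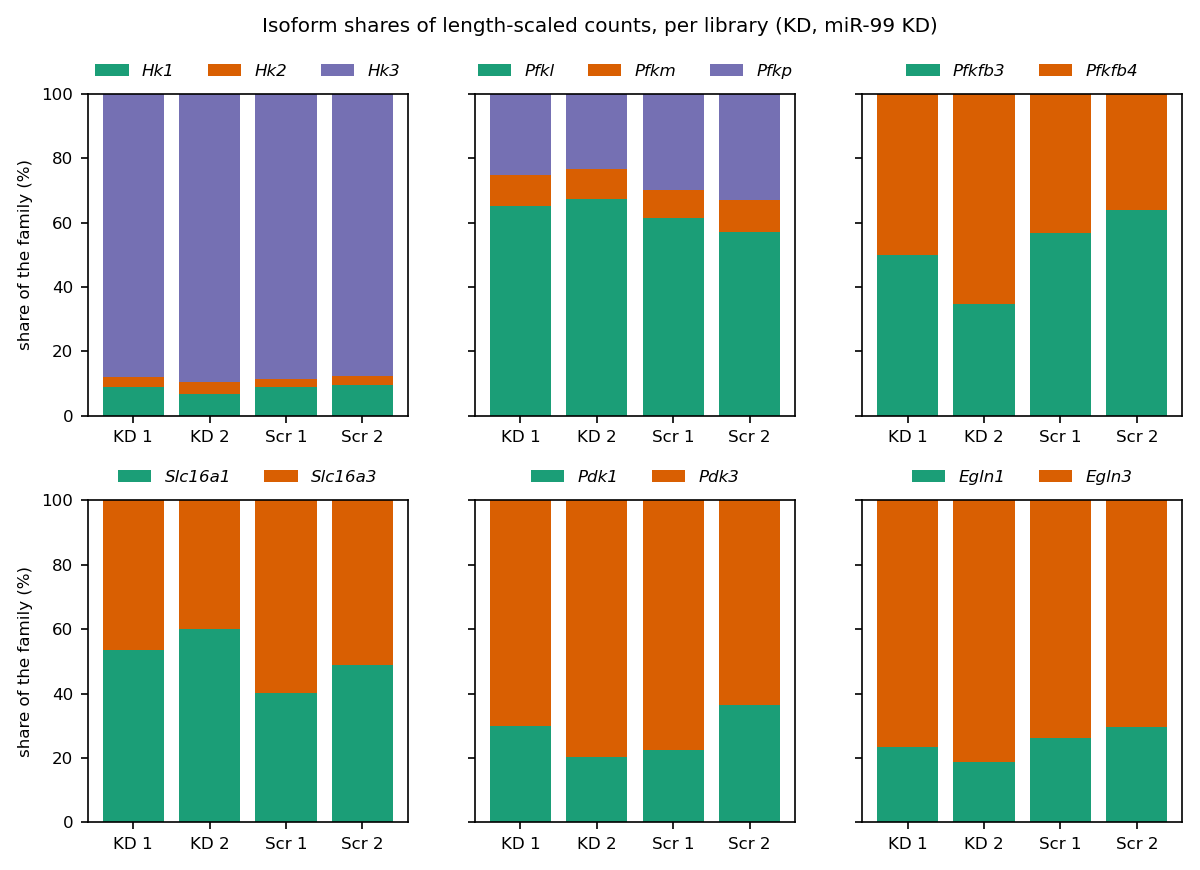
Share (%) of each gene in the counts of its family, scaled by the union of exons, per library, with the miR-99 KD libraries left of the Scr libraries. Pfkfb4 and Slc16a1 held larger shares in both miR-99 KD libraries than in both Scr libraries, and Hk3 held 87.7% to 89.6% in all 4.

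Pyruvate dehydrogenase kinases keep pyruvate out of the mitochondrial cycle. Pdk3, the higher of the pair per kb, had 101 and 144 CPM in miR-99 KD, against 68.7 and 94.1 CPM in Scr. Its groups did not overlap, with a log2 fold change of 0.59 ± 0.27 (edgeR adjusted p = 0.661). Pdk1, a classical HIF target, had 132 and 112 CPM in miR-99 KD, against 60.3 and 163 CPM in Scr, so the Scr libraries lay on either side of miR-99 KD. Its log2 fold change of 0.13 ± 0.50 became −0.35 without Scr 1.

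In Hif1a, Vegfa, Mxi1 and Pdk1, Scr 1 was the lowest library. Hif1a, which encodes HIF-1 alpha, had 206 and 197 CPM in miR-99 KD, against 100.5 and 203 CPM in Scr. Vegfa, the vascular growth factor, had 83.7 and 51.3 CPM in miR-99 KD, against 28.2 and 79.6 CPM in Scr. Mxi1, a Max partner that opposes Myc, had 125 and 93.0 CPM in miR-99 KD, against 52.4 and 117 CPM in Scr. With Pdk1, these are the 4 members in which Scr 1 stood furthest below the mean of the other libraries, and their groups overlapped. In Vegfa and Mxi1, miR-99 KD 2 was the next lowest. The log2 fold changes were 0.41 ± 0.37 for Hif1a, 0.32 ± 0.57 for Vegfa and 0.37 ± 0.44 for Mxi1, and without Scr 1 they became 0.06, −0.18 and −0.03. Hif1a shares 330 exon bases with the antisense gene Gm15283 and 148 with Gm49321 on the same strand, whose reads may not have been separable.

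The prolyl hydroxylases that mark HIF alpha were both detected. Egln3, which HIF itself raises, had 18.8 and 31.9 CPM in miR-99 KD, against 14.7 and 15.0 CPM in Scr. The Egln3 groups did not overlap, and its log2 fold change of 0.77 ± 0.32 was the most positive of the 35 (edgeR adjusted p = 0.655). Without miR-99 KD 2 it was 0.38. Egln1, the main oxygen sensor, had 7.76 and 10.02 CPM in miR-99 KD, against 7.07 and 8.55 CPM in Scr, and its groups overlapped. Per kb, Egln3 made up 76.6% and 81.1% of the pair in miR-99 KD, against 73.7% and 70.3% in Scr.

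Among the hypoxia response genes, P4ha1 (ENSMUSG00000019916, chr10:59323296-59373304 on GRCm38) had the smallest p of the 35 tested genes. It had 48.9 and 66.0 CPM in miR-99 KD, against 33.6 and 34.2 CPM in Scr. Both miR-99 KD libraries lay above both Scr libraries, which were close to each other. The level in miR-99 KD was 1.69 times that in Scr, a log2 fold change of 0.76 ± 0.22 (edgeR adjusted p = 0.583), and DESeq2 gave an adjusted p of 0.480. The log2 fold change lay between 0.56 and 1.02 when each library was left out in turn. P4ha1 shares no 50-base stretch with the transcripts of other genes.

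Bnip3 and Bnip3l, which encode receptors for the removal of mitochondria, were highest in miR-99 KD 2. Bnip3l had 172 and 256 CPM in miR-99 KD, against 166 and 138 CPM in Scr, a log2 fold change of 0.49 ± 0.25 (edgeR adjusted p = 0.686), with no overlap of the groups. Bnip3 had 32.6 and 51.6 CPM in miR-99 KD, against 36.4 and 28.7 CPM in Scr, and Ankrd37, an ankyrin repeat gene, had 2.78 and 6.30 CPM in miR-99 KD, against 3.53 and 2.86 CPM in Scr. In both, miR-99 KD 1 lay below Scr 1, and the Ankrd37 log2 fold change of 0.51 ± 0.47 became −0.17 without miR-99 KD 2. Ndrg1, a stress-response gene, had 39.8 and 36.0 CPM in miR-99 KD, against 35.1 and 45.0 CPM in Scr. The 8 hypoxia response genes together summed to 505 and 560 CPM in miR-99 KD, against 356 and 446 CPM in Scr. Bnip3l was the largest part of the sum in every library, and Vegfa and Mxi1 were lowest in Scr 1. A list of 42 other hypoxia response genes summed to 2475 and 2428 CPM in miR-99 KD. Its sums were 1928 and 2431 CPM in Scr, so those groups overlapped.

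The median difference between the 2 miR-99 KD libraries was close in size to that between the group means. The larger of the 2 differences between libraries of 1 group exceeded the difference between groups in 29 of the 35 genes (82.9%), beside 71.6% of all genes. The median absolute log2 difference was 0.43 for miR-99 KD 2 against miR-99 KD 1 and 0.24 for Scr 1 against Scr 2, beside 0.40 for the group difference. A difference between 2 single libraries varies more than one between means of 2 libraries. These values therefore cannot show whether the groups differ. In miR-99 KD 2, 15 members (42.9%) had their highest value, beside 30.6% of all genes, and 11 (31.4%) their lowest, beside 33.6% of all genes. Scr 1 held the lowest value of 14 (40%), beside 24.8% of all genes. The log2 difference of miR-99 KD 2 over miR-99 KD 1 ranked inversely with the length of the longest transcript, with a Spearman coefficient of −0.49 over the 35 genes and −0.33 over 15369 genes. For Scr 1 over Scr 2 the coefficients were −0.39 and −0.21. These points share their libraries, so the coefficients are descriptions, and the part of transcript length or of granulocyte markers was not tested.

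With miR-99 KD 1 left out, and the remaining miR-99 KD library taken to vary like the Scr libraries, 9 of 37 members had an unadjusted edgeR p under 0.05 and higher values in miR-99 KD (24.3%), beside 6.33% of all genes, and 8 had lower values (21.6%), beside 8.96%. The 9 were Pgam1, P4ha1, Bnip3l, Aldoa, Egln3, Ankrd37, Gapdh, Ldha and Eno1, and the 8 were Pfkl, Pfkp, Slc16a3, Hk3, Pfkfb3, Ldhb, Pfkm and Hk1. With miR-99 KD 2 left out instead, 1 of 36 was higher (P4ha1), beside 1.42% of all genes, and 0 were lower, beside 2.44%. Without Scr 1, 1 of 35 was higher (Pfkfb4), beside 3.13%, and 0 were lower, beside 3.73%. Without Scr 2, 4 of 36 were higher (Pdk1, Hif1a, Vegfa and Mxi1), beside 7.02%, and 1 was lower (Ldhb), beside 6.02%. Leaving out each library in turn, the log2 fold change lay between 0.35 and 0.89 for Pdk3, 0.21 and 0.81 for Bnip3l, −0.86 and −0.37 for Aldoc, and −0.63 and −0.19 for Slc16a3. No member had an adjusted p under 0.05 in any of these fits.

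The 38 genes together held a similar part of each library. They made up 0.847% and 0.870% of gene counts in miR-99 KD, against 0.937% and 0.858% in Scr, a difference of −0.0388 percentage points that was smaller than the SD of the Scr libraries (0.0556) and became 0.00054 without Scr 1. After TMM scaling they summed to 8737 and 8774 CPM in miR-99 KD, against 8758 and 8853 CPM in Scr.

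Several genes share sequence with other annotated genes, and their levels are uncertain for that reason. Of the 50-base windows of the Gapdh transcript, 82.5% also occur in transcripts of other genes, 222 genes in all, and the shares were 72.2% for Eno1, 68.0% for Pgk1, 62.4% for Bnip3, 41.5% for Pgam1, 34.4% for Pkm and 27.0% for Ldhb. Alignments that were not unique stood in a category of their own, outside the gene counts, so such genes may be under-counted. Gapdh was at 21.6 and Pgk1 at 13.9 CPM per kb, but Eno1 was at 103 and Pkm at 342 CPM per kb. Hk3 shared 0% of its windows and Pfkl 0.0543%, with levels of 214 and 23.2 CPM per kb. The effect of shared sequence on these levels was not tested. The exons of 15 of the 38 genes overlap those of another gene, among them Pkm with 767 bases and Gpi1 with 741 bases.

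**Figure D5:**
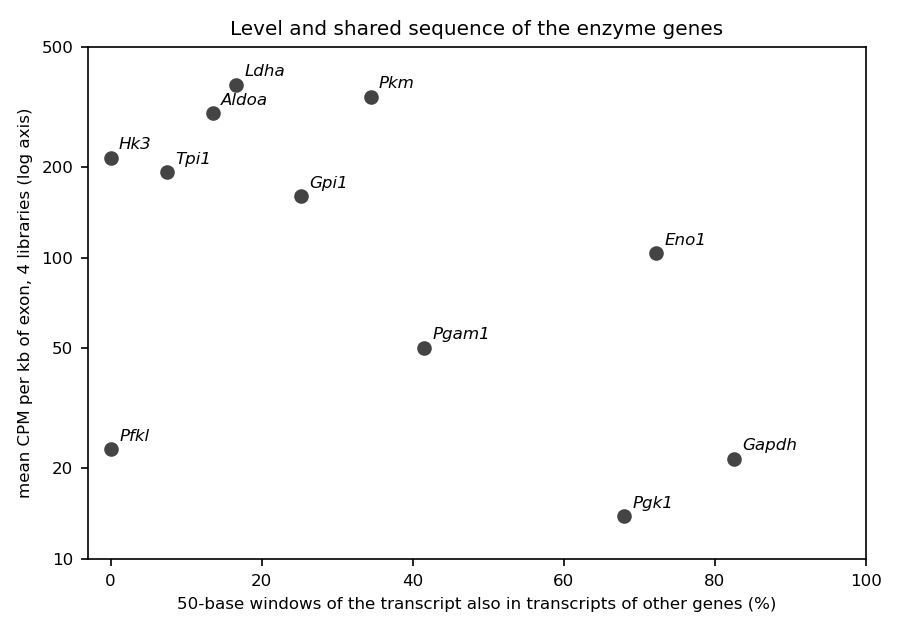
Mean level over the 4 libraries (CPM per kb of exon, log axis) against the share of 50-base transcript windows also found in other genes, for the leading gene of each enzyme step. Gapdh and Pgk1, with shares of 82.5% and 68.0%, lie at 21.6 and 13.9 CPM per kb, while Eno1, with 72.2%, lies at 103 and Pfkl, with 0.0543%, at 23.2 CPM per kb.

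Genes of neighbouring pathways were compared in 5 lists. The main edgeR test called 0 of them at an adjusted p under 0.05, beside 0% of all genes. Over all genes tested, 49.0% had positive log2 fold changes. At an unadjusted edgeR p under 0.05, 2.66% of all genes were higher in miR-99 KD and 5.23% were lower. Of 18 tested genes for other glycolytic isoforms and enzymes, 7 had positive and 11 negative log2 fold changes, and Pgam2, the muscle mutase, was lower at an unadjusted p under 0.05, at −0.98 ± 0.31. Of 12 genes for pyruvate entry to mitochondria, 9 were positive, and Pdp1, a phosphatase that reactivates pyruvate dehydrogenase, was higher at that level, at 0.51 ± 0.19. Of 11 genes of the pentose phosphate pathway, 7 were positive and 0 had an unadjusted p under 0.05. The 33 tested genes of the other hypoxia response list had 18 positive values, with 3 genes higher and 3 lower at that level. The 4 with the smallest p were the secreted glycoprotein gene Stc2 at 1.14 ± 0.27, the heme oxygenase gene Hmox1 at −1.01 ± 0.29, the mTORC1 inhibitor gene Ddit4 at −1.32 ± 0.41 and the cyclin gene Ccng2 at 0.97 ± 0.34.

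Of the 12 tested genes of the other HIF system list, 7 had positive and 5 negative log2 fold changes. At an unadjusted edgeR p under 0.05, 2 were lower (Hif3a and Egln2), beside 5.23% of all genes. In the other direction 0 were higher, beside 2.66%. The clearest difference among these 12 was in Hif3a, which encodes another alpha subunit with forms that oppose HIF-1. Hif3a had 4.86 and 4.93 CPM in miR-99 KD, against 20.2 and 16.2 CPM in Scr. The groups did not overlap, and both libraries of each group were close, with a log2 fold change of −1.89 ± 0.24. The edgeR adjusted p was 0.335, while DESeq2 gave an adjusted p of 6.56e-05, its only call in the 5 pathway lists. Egln2, the remaining HIF prolyl hydroxylase gene, had 81.1 and 62.4 CPM in miR-99 KD, against 114 and 108 CPM in Scr, a log2 fold change of −0.62 ± 0.20 (edgeR adjusted p = 0.601). Its values lay below Scr while those of Egln3 lay above.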

How the data were processed

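RNA was sequenced in 4 libraries, 2 from miR-99 KD and 2 from Scr recipients. The authors deposited unscaled counts of reads for each Ensembl identifier, which the whole numbers and unequal library totals show. Per the submitters' processing notes, mm9 was the build and STAR, Picard, HTSeq and DESeq2 were used, with no versions stated. The sources used here do not give the annotation release, strand setting or read layout. Categories that name no gene held 43.7% and 46.6% of entries in the miR-99 KD libraries and 49.7% and 43.7% in the Scr libraries, and stayed out of library sizes and tests.

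Symbols were matched by identifier for 44585 of 45232 identifiers, and exon lengths and gene positions come from GENCODE M21 (GRCm38), with none converted from mm9. CPM values were computed from gene counts with TMM factors, which were 0.969 and 0.993 in miR-99 KD and 1.07 and 0.970 in Scr. Only the olfactory receptor sums were scaled by total gene counts without these factors. Groups were compared by the two-sided quasi-likelihood test of edgeR 4.0.16 under R 4.3.3. The default filter (minimum count 10) kept 15591 genes, over which p-values were adjusted by Benjamini-Hochberg, at a threshold of 0.05. DESeq2 1.42.0 and limma-voom (limma 3.58.1), other scaling factors, other filters, a replicate block and leaving out each library were alternatives. A block with the replicate numbers crossed was added after seeing the data.

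The members and the other gene lists were chosen with earlier results of these data known. Values in every library are given for members with an unadjusted edgeR p under 0.05 or a DESeq2 adjusted p under 0.05, for those whose groups did not overlap with an absolute log2 fold change of at least 0.5, and for the member with most counts per kb in each role. Other members named with values in every library were chosen after their values were seen. From the other pathway lists, at most 4 genes with the smallest unadjusted p under 0.05 are named. Counting error alone sets the limit that a count of 0 allows, which is 3 counts. Promoter and microRNA sequences are from RefSeq on GRCm38.p6, and 3' UTRs from GENCODE M21 transcripts. Protein sequences were not used here.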

Additional observations from a re-analysis of the deposited data

How the results depend on the processing

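The count of members past the adjusted threshold stayed at 0 in every alternative run. Over all genes, edgeR called 0, against 208 with DESeq2, 23 with upper-quartile factors, 9 without a filter and 0 to 294 when each library was left out in turn, the last without Scr 1. Members at an unadjusted p under 0.05 numbered 2, against 1 with the stricter filter and 1 to 17 with each library left out. Their median log2 fold change was 0.16, and 0.063 to 0.23 with each library left out. The sign of Hk2 (0.05) turned with limma-voom (−0.019) and upper-quartile factors (−0.00057), and that of Gpi1 (0.01) with upper-quartile factors (−0.020) and the stricter filter (−0.025). Leaving out each library gave ranges that crossed 0 for Hk1 (−1.42 to 0.039), Hk2 (−0.39 to 0.45), Hk3 (−0.93 to 0.10), Gpi1 (−0.0022 to 0.14), Pfkl (−0.69 to 0.15), Pfkm (−0.87 to 0.058), Pfkfb3 (−0.95 to 0.037), Pgam1 (−0.065 to 0.48), Ldha (−0.15 to 0.30), Pdk1 (−0.35 to 1.06), Vegfa (−0.18 to 1.30), Ankrd37 (−0.17 to 1.04), Ndrg1 (−0.18 to 0.16) and Mxi1 (−0.034 to 1.10). The causes were not tested. Isoform shares above use the union of exons as length. With the longest transcript instead, Hk3 held 81.9% (Scr 2) to 85.5% (miR-99 KD 2) of the hexokinase counts. Without length scaling it held 76.7% (Scr 2) to 80.6% (miR-99 KD 2), and Pfkp held 51.7% in Scr 2, against 44.4% for Pfkl. The Pfkfb4 and Slc16a1 shares stayed larger in both miR-99 KD libraries with either alternative. Deviations of same-numbered libraries correlated at −0.43. With 2 libraries per group this is a single value, which cannot show whether same-numbered mice shared a day or batch. The replicate block called 0 genes, left 1 member at an unadjusted p under 0.05 and gave −0.017 for Hk2. The crossed block, chosen after seeing the data, called 28 genes, with 4 members at an unadjusted p under 0.05 and −0.017 for Hk2. With 2 mice per group, p-values rest on few residual degrees of freedom. Genes with few counts, such as Eno2, Epas1 and Adm, did not pass the filter of the main edgeR test.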

Other observations

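Annotated processed copies of 2 members held many counts of their own. Pgam1-ps2 had 2715 and 3693 counts in miR-99 KD and 2953 and 2806 counts in Scr, beside 3613 and 5267 counts of Pgam1 in miR-99 KD and 3841 and 3795 counts in Scr. In both genes miR-99 KD 2 was the highest library. Bnip3l-ps had 1729 and 2507 counts in miR-99 KD and 1738 and 1391 counts in Scr, and it too was highest in miR-99 KD 2, as Bnip3l was. Whether reads of the copies come from their parent genes was not tested.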
